A study of Mus musculus with 6 samples.

Results

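Type I interferon stimulated genes were examined in monocytes taken from mouse melanomas that did or did not overexpress BAFF, the B cell activating factor. The 39 genes were chosen by name from the 18341 genes of the deposited table, as receptor subunits, STAT and IRF factors, sensors and antiviral effectors of the type I interferon response. All 39 were listed and all 39 passed the filter on low values. C57BL/6 mice had received B16.F10 cells, a pigmented mouse melanoma line, under the skin, and monocytes were sorted from the tumours 13 days later. One group of 3 libraries came from tumours of BAFF-overexpressing B16.F10 cells and the other group of 3 libraries from tumours of control B16.F10 cells, so both groups share the strain, the tumour line, the site and the day. The labels give neither the age or sex of the mice, nor the construct or clone that carries BAFF, nor the surface markers of the sort, nor whether each library stands for a mouse of its own. The p-values therefore measure only the spread between these libraries, which may be technical. A source label gives B16.F10 for all samples, which differs from the sorted monocytes of the series design, and the libraries are described here as the design has them.

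Type I interferons, interferon beta and the interferon alphas, bind a receptor made of IFNAR1 and IFNAR2. The kinases JAK1 and TYK2 on the receptor then phosphorylate STAT2, which acts with IRF9 in a nuclear complex that binds interferon stimulated response elements (ISRE) in the promoters of many genes. The products of these genes detect viral nucleic acid, block translation, degrade RNA or feed back on the pathway. In tumours, type I interferon is known for its part in the priming of T cells, and monocytes both make and answer it.

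Values are given as scaled CPM, that is the deposited CPM, the reads of a gene relative to all reads of its library, divided by a size factor for each library. The scaling was needed because the listed genes held 39.8% to 66.1% of the library totals. CT010467.1, which encodes ribosomal RNA, had 693 to 5880 deposited CPM in the BAFF tumour libraries, against 299 CPM in control tumour 1 and 27020 and 43050 CPM in control tumours 2 and 3. By an estimate of depth from the spacing of low values, 1 CPM corresponded to 9.65 to 27.6 reads in BAFF tumour libraries and to 4.72 to 27.3 reads in controls. The member with the fewest reads in any library still had about 23. Monocyte genes were abundant in all libraries, with Lyz2 (lysozyme) at 4864 ± 405 scaled CPM in BAFF tumour libraries and 3961 ± 857 in controls (SD, n = 3 each). The list of monocyte and macrophage markers summed to 11000 to 11900 scaled CPM in BAFF tumour libraries and 7970 to 9880 in controls, and 5 of its 14 genes passed as higher and 0 as lower. The 11 melanoma markers summed to 83.0 to 168 scaled CPM in BAFF tumour libraries and 501 to 646 in controls, with 9 lower. The 11 cell cycle genes summed to 108 to 114 scaled CPM in BAFF tumour libraries and 324 to 370 in controls, with 11 lower. In these bulk samples, fewer cells of a type and less RNA per cell cannot be told apart.

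The interferon genes did not shift together between the 2 groups. Both receptor genes, Ifnar1 and Ifnar2, were higher in BAFF tumour monocytes, and Ifit2, Ifit3 and Ifi44 were lower. The other 34 genes did not pass the test. Thus 5 of 39 members were called (12.8%; limma-trend, Benjamini-Hochberg adjusted p under 0.05), against 17.1% of all 12824 genes tested. Of the members 5.13% were called higher, against 7.18% of all tested genes, and 7.69% were called lower, against 9.91%. The 3 BAFF tumour libraries lay wholly above or below the 3 controls for 7 members (17.9%), and for 35.2% of all tested genes. The median log2 fold change, BAFF tumour over control tumour, was -0.02 over the members and 0.01 over all tested genes, with 17 members above 0 and 22 below. For each of the 34 members not called, the 95% interval of the log2 fold change lay within 1 in either direction, and for 24 of them within a 1.5-fold change. On the scaled values, taken 1 gene at a time, each of the 34 intervals thus leaves out changes of 2-fold or more. Those 24 leave out changes of 1.5-fold or more. The intervals are not adjusted for the number of genes, so they do not hold jointly at 95%. Smaller changes are not left out. With the deposited CPM and no rescaling, 0 members were called, against 5.31% of all tested genes. On that scale the median of all tested genes lay 0.23 above 0 and that of the members 0.227.

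**Figure D1:**
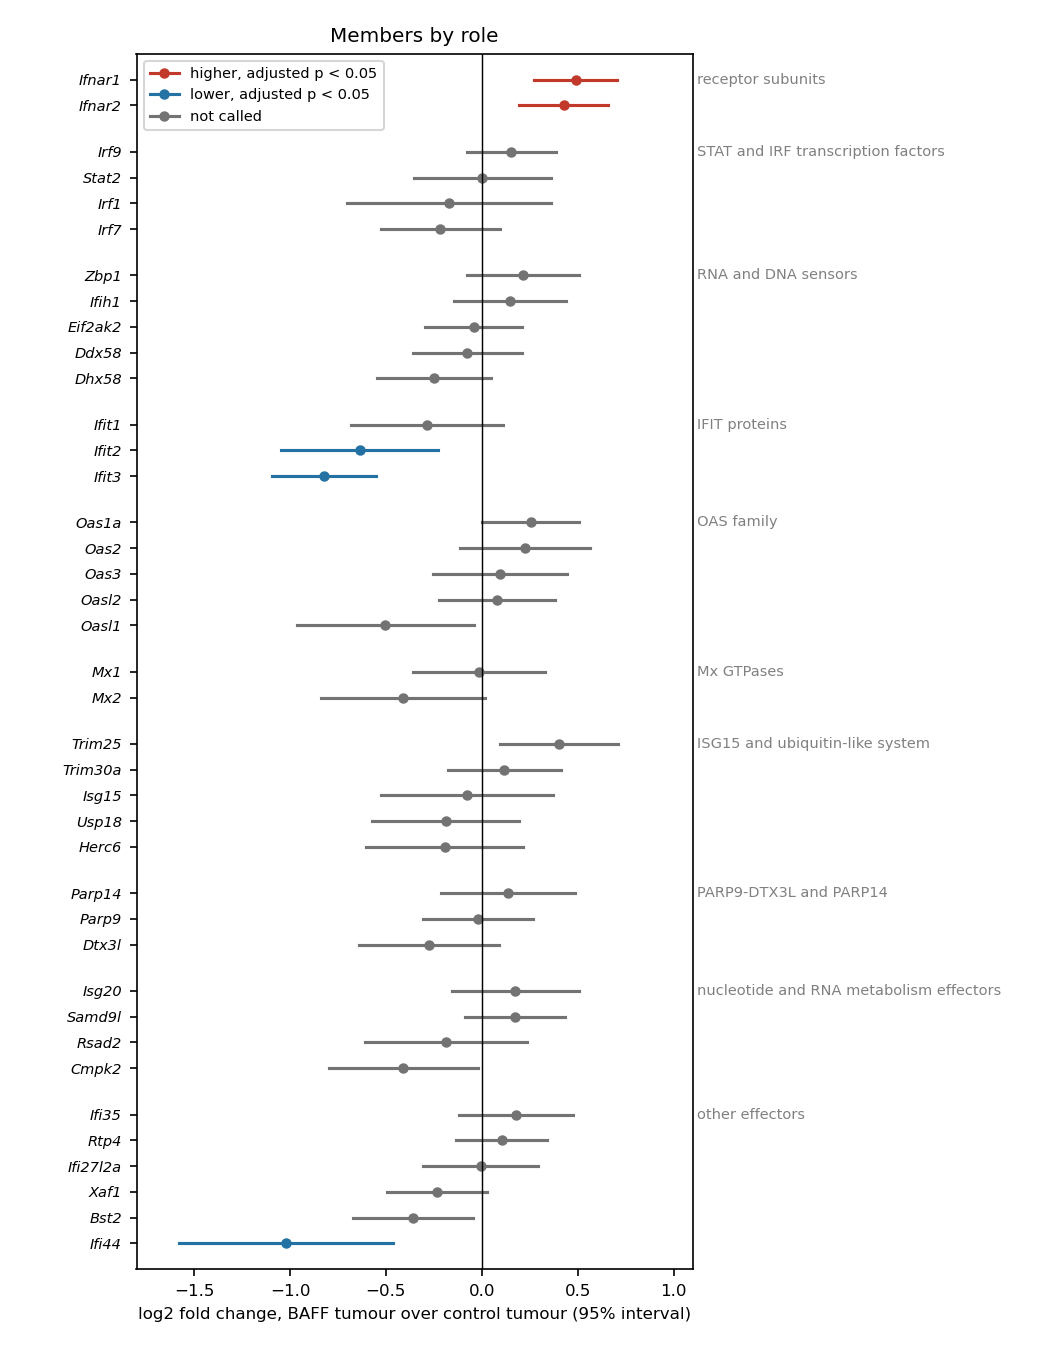
Log2 fold change of each of the 39 members, BAFF tumour over control tumour, with its 95% interval, grouped by role. Ifnar1 and Ifnar2 lie above 0, Ifit2, Ifit3 and Ifi44 lie below 0, and the 34 members in grey did not pass the adjusted p threshold of 0.05.

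The receptor subunits were the only role group in which every member was called. Ifnar1, the subunit that carries TYK2, had 203, 196 and 179 scaled CPM in BAFF tumour libraries, against 142, 126 and 143 in controls. All 3 BAFF tumour libraries were above all 3 controls, and the log2 fold change was 0.49 ± 0.10 (SE; 95% interval 0.27 to 0.70; limma adjusted p = 0.00523). Ifnar2, the subunit that binds interferon most tightly and carries JAK1, had 92.1, 86.4 and 90.3 scaled CPM in BAFF tumour libraries, against 76.1, 60.3 and 63.8 in controls. The groups again did not overlap, and the log2 fold change was 0.43 ± 0.11 (95% interval 0.19 to 0.66; adjusted p = 0.017). Per kilobase of exon, Ifnar1 averaged 49.2 scaled CPM in BAFF tumour libraries and 35.0 in controls, and Ifnar2 averaged 28.2 in BAFF tumour libraries and 21 in controls. Gm21970 overlaps 9.92% of the exon bases of Ifnar2 on the same strand. Of the 75-base stretches of Ifnar2, 8.11% occur also in other genes, chiefly Gm21970, so some reads could be split between them. Ifnar1 passed in each of the 6 fits that left out 1 library. Ifnar2 missed without BAFF tumour 1 (adjusted p = 0.0583), control tumour 2 (0.0737) or control tumour 3 (0.0552). With control tumour 1 as the sole control, that is without both controls high in ribosomal RNA, neither was called, at log2 fold changes of 0.42 for Ifnar1 (adjusted p = 0.124) and 0.22 for Ifnar2 (adjusted p = 0.449).

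The 2 receptor genes lie in a cluster of 4 cytokine receptor genes on chromosome 16, in the order Ifnar2, Il10rb, Ifnar1, Ifngr2 in the RefSeq annotation of GRCm38.p6. Il10rb and Ifngr2 were chosen for mention after their values were seen. Ifngr2, a subunit of the interferon gamma receptor, averaged 76.3 ± 0.474 scaled CPM in BAFF tumour libraries and 66.2 ± 2.19 in controls, without overlap of the groups (log2 fold change 0.20 ± 0.09; adjusted p = 0.149). Il10rb, a subunit shared by the receptors for interleukin 10 and interferon lambda, averaged 105.5 ± 5.77 scaled CPM in BAFF tumour libraries and 92.3 ± 7.32 in controls (0.19 ± 0.10; adjusted p = 0.212). All 4 genes of the cluster thus had a higher mean in BAFF tumour libraries, and the 2 type I receptor genes passed. Of all 12824 tested genes, 6560 had a positive log2 fold change.

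Downstream of the receptor, the STAT and IRF factors did not pass. Stat2, the STAT particular to the type I and type III pathways, had 60.8, 62.2 and 89.3 scaled CPM in BAFF tumour libraries, against 65.2, 85.9 and 60.0 in controls. Irf9, the DNA-binding partner of STAT2, had 57.2, 64.3 and 62.5 scaled CPM in BAFF tumour libraries, against 56.6, 59.9 and 49.0 in controls. The groups overlapped for both, and the log2 fold changes were 0.00 ± 0.16 for Stat2 and 0.15 ± 0.11 for Irf9. Irf7, which amplifies interferon alpha production, had 111, 146 and 142 scaled CPM in BAFF tumour libraries, against 141, 188 and 137 in controls (log2 fold change -0.22 ± 0.14; adjusted p = 0.335). Irf1, which also answers interferon gamma, had 100, 174 and 202 scaled CPM in BAFF tumour libraries, against 214, 190 and 124 in controls. Irf1 spread widely within both groups, and its log2 fold change of -0.17 had a 95% interval of -0.70 to 0.36.

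The 5 sensors of foreign nucleic acid did not pass either. They were Ddx58 (RIG-I) and Ifih1 (MDA5), the cytosolic RNA sensors that signal through MAVS, Dhx58 (LGP2), which tunes both, Zbp1, a sensor of Z-form nucleic acid, and Eif2ak2 (PKR), the kinase that halts translation on double-stranded RNA. Their log2 fold changes ran from -0.25 for Dhx58 to 0.21 for Zbp1. The most abundant, Ifih1, had 66.7, 72.4 and 79.9 scaled CPM in BAFF tumour libraries, against 70.3, 76.1 and 53.1 in controls, and the groups overlapped. For each of the 5 the 95% interval lay within a 1.5-fold change.

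The IFIT group held the clearest decrease. IFIT proteins bind viral RNA and the translation machinery. Ifit3 had 39.5, 45.4 and 42.1 scaled CPM in BAFF tumour libraries, against 70.4, 91.3 and 67.3 in controls. The 3 BAFF tumour libraries lay close together, below all controls, and the log2 fold change was -0.83 ± 0.12 (95% interval -1.10 to -0.55; adjusted p = 0.000914). Ifit2 had 81.3, 101 and 95 scaled CPM in BAFF tumour libraries, against 145, 198 and 103 in controls. The groups did not overlap, but control tumour 3 was close to the BAFF tumour libraries (log2 fold change -0.64 ± 0.19; 95% interval -1.05 to -0.23; adjusted p = 0.0368). Ifit1 had 24.6, 27.4 and 29.8 scaled CPM in BAFF tumour libraries, against 33.6, 45.2 and 24.3 in controls, and control tumour 3 was the lowest of the 6 libraries. Its log2 fold change was -0.28 ± 0.18 (adjusted p = 0.322).

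Ifit3 passed in each of the 6 fits that left out 1 library, and with control tumour 1 as the sole control (log2 fold change -0.74; adjusted p = 0.0134). Ifit2 passed in the fit without control tumour 3 (log2 fold change -0.88; adjusted p = 0.00289) and missed without any other single library, with adjusted p of 0.128, 0.0739 and 0.0742 without BAFF tumours 1, 2 and 3 and 0.0722 and 0.11 without control tumours 1 and 2. Without control tumour 2 the log2 fold change of Ifit2 was -0.41. The log2 fold changes of Ifit1, Ifit2 and Ifit3 were below 0 under all 16 alternative settings. Of the 75-base stretches in Ifit3 exons, 41.1% occur also in other genes, chiefly its neighbour Ifit3b, so reads could be split between them. Ifit3b itself averaged 5.48 ± 0.0374 scaled CPM in BAFF tumour libraries and 9.87 ± 2.01 in controls (log2 fold change -0.73 ± 0.17; adjusted p = 0.0099). Ifit1bl1, which lies between Ifit3 and Ifit3b and was picked for mention with its values known, had a log2 fold change of -0.48 ± 0.19 (adjusted p = 0.109), without overlap of the groups.

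**Figure D2:**
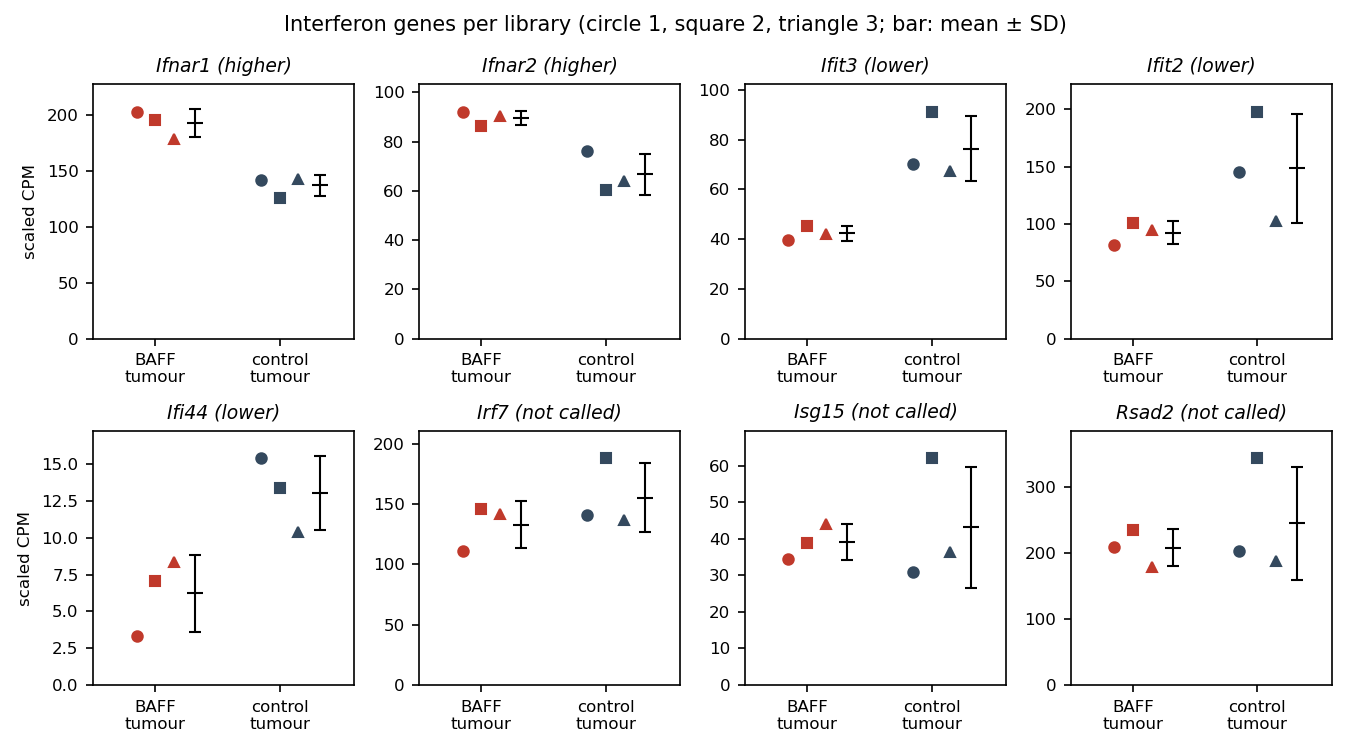
Scaled CPM of 8 members in each library, BAFF tumour left and control tumour right, with circle, square and triangle for replicates 1, 2 and 3 and bars for the mean ± SD. Ifnar1, Ifnar2, Ifit3, Ifit2 and Ifi44 show no overlap between groups, whereas Irf7, Isg15 and Rsad2 overlap, each with control tumour 2 as its highest library.

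The promoters of the Ifit genes are shown because these genes lie in a single cluster on chromosome 19 and differed in whether they were called. Their fold changes were not tested against each other, and the 95% intervals of Ifit1, Ifit2 and Ifit3 overlap. RefSeq gives the 250 bases before the start of Ifit3 at chr19:34583279-34583528, of Ifit2 at chr19:34550444-34550693 and of Ifit1 at chr19:34640639-34640888, all on the plus strand of GRCm38.p6. Capitals mark matches, on either strand, to the core of the ISRE, spelled GAAA, any 2 bases, GAAA.
Ifit3: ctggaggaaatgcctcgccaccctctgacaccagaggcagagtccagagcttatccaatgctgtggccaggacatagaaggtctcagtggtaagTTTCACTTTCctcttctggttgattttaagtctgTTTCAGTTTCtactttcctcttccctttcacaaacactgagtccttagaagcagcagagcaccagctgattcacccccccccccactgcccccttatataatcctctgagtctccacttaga
Ifit2: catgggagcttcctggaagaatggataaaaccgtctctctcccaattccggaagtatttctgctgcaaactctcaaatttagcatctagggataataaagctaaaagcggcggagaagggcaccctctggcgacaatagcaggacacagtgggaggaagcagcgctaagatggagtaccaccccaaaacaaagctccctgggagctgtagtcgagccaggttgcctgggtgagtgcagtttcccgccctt
Ifit1: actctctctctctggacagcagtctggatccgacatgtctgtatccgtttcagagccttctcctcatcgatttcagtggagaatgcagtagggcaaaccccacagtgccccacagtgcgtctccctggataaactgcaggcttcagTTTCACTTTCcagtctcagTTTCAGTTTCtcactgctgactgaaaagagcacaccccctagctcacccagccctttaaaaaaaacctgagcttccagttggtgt

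Ifit3 held a pair of matches, whose first bases lie 156 and 122 bases upstream of the start, and Ifit1 held the same pair of 10-base matches at 104 and 85 bases. The window of Ifit2, and that of its other listed start, held no such letters. Ifit1, which was not called, therefore carries the same matches as Ifit3. A promoter window of 300 bases, 250 before and 50 after the start, was found for 29 of the 39 members, and 12 of these (41.4%) held at least 1 such ISRE-like match. The same letters were found in 4.15% of the tested genes with a window and in 3.99% of all 27018 genes with one. Of the 5 called members Ifit3 held the match, and of the 24 uncalled members with a window 11 did.

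Single ISRE-like sites are shown for uncalled effectors and for Stat2, and the sites in the receptor promoters for the called receptor genes, each read on the gene's own strand from the same RefSeq windows. Capitals mark the ISRE-like letters or their reverse complement in the first 4 and TTCNNNGAA, the core of the STAT-binding gamma activated sequence, in the last 2.
Stat2: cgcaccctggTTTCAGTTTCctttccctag
Rsad2: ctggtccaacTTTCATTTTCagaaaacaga
Oas3: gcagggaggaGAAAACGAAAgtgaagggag
Isg15: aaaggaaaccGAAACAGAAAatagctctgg
Ifnar1: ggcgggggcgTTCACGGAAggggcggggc
Ifnar2: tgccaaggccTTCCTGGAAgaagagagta

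The window of Isg15 held 3 overlapping matches, of which the one nearest the start is printed, 66 bases upstream. TTCNNNGAA was present for 9 of the 29 members with a window (31.0%) and in 8.33% of the tested genes with a window. Its other spacing, spelled TTCC, any 2 bases, GGAA, was present for 1 of these members (3.45%) and in 1.14% of the tested genes with a window. Neither receptor window held the ISRE-like letters.

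Those members of the OAS family that are active enzymes make the second messenger that activates RNase L. None of the 5 genes of the family passed. Oasl2, the most abundant, had 80.7, 92.0 and 111 scaled CPM in BAFF tumour libraries, against 87.1, 105 and 76.8 in controls, and the groups overlapped. Oas1a averaged 91.3 ± 10.3 scaled CPM in BAFF tumour libraries and 76.3 ± 9.05 in controls (log2 fold change 0.26 ± 0.12; unadjusted p = 0.0486; adjusted p = 0.161). Of the 75-base stretches of Oas1a 47.6% recur in other genes, mostly Oas1g, so its value is uncertain. Oasl1, known in mice to restrain translation of Irf7, averaged 32.1 ± 4.09 scaled CPM in BAFF tumour libraries and 47.9 ± 18.8 in controls (-0.50 ± 0.21; adjusted p = 0.13), with 69.0 in control tumour 2 as the highest value. Oas2 and Oas3 had log2 fold changes of 0.23 and 0.10.

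The Mx genes encode dynamin-like GTPases that block viral ribonucleoproteins, and C57BL/6 mice are known to carry a defective Mx1 allele. Mx1 had 35.1, 34.0 and 35.2 scaled CPM in BAFF tumour libraries, against 34.7, 46.2 and 27.2 in controls, which straddled the BAFF tumour libraries (log2 fold change -0.02 ± 0.16). Mx2 averaged 6.89 ± 1.46 scaled CPM in BAFF tumour libraries and 9.56 ± 2.4 in controls (-0.41 ± 0.20; adjusted p = 0.181).

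In the ISG15 and ubiquitin-like group, Isg15 itself, a small protein that is coupled to other proteins, had 34.5, 38.9 and 44.1 scaled CPM in BAFF tumour libraries, against 31.0, 62.1 and 36.3 in controls. The groups overlapped, and the log2 fold change was -0.08 ± 0.21. Usp18, which removes ISG15 and also blocks signalling at IFNAR2, was at -0.19 ± 0.18, and Herc6, the main ISG15 ligase of mice, at -0.19 ± 0.19. Trim25, a ubiquitin ligase of the RIG-I pathway, had 221, 155 and 226 scaled CPM in BAFF tumour libraries, against 141, 164 and 144 in controls. BAFF tumour 2 lay among the controls, and the log2 fold change of 0.40 ± 0.14 missed the threshold (adjusted p = 0.0728). Trim30a, which dampens NF-kB signalling in mouse cells, was at 0.12 ± 0.14. None of the 5 genes was called.

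Parp9 and Dtx3l, which encode the partners of an ADP-ribosylating ubiquitin ligase complex, and Parp14, a mono-ADP-ribosyltransferase, were not called. Parp14 had 213, 251 and 335 scaled CPM in BAFF tumour libraries, against 233, 279 and 207 in controls, the highest mean level of the 39 members. Its groups overlapped, and the log2 fold change was 0.14 ± 0.16. Parp9 was at -0.02 ± 0.13 and Dtx3l at -0.28 ± 0.17. The exons of Parp9 and Dtx3l overlap on opposite strands over 10.3% and 6.41% of their lengths, and the library kit does not mark strand, so a part of their reads cannot be assigned to either.

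Among effectors of nucleotide and RNA metabolism, Rsad2 (viperin, which makes a chain-terminating nucleotide) had 210, 235 and 179 scaled CPM in BAFF tumour libraries, against 203, 344 and 188 in controls. Control tumour 2 stood apart from the other 5 libraries, and the log2 fold change was -0.19 ± 0.19 (adjusted p = 0.562). Cmpk2, the nucleotide kinase gene that neighbours Rsad2, averaged 40.2 ± 4.95 scaled CPM in BAFF tumour libraries and 55.1 ± 17.2 in controls (-0.41 ± 0.18; adjusted p = 0.142). Isg20, an exonuclease gene, was at 0.17 ± 0.15 and Samd9l, an antiviral and growth-restraining gene, at 0.17 ± 0.12. None of the 4 passed.

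Of the remaining 6 effectors, Ifi44 passed as lower. Ifi44, which encodes a cytosolic interferon-induced protein, had 3.30, 7.08 and 8.32 scaled CPM in BAFF tumour libraries, against 15.4, 13.4 and 10.4 in controls. The groups did not overlap, and the log2 fold change was -1.02 ± 0.26 (95% interval -1.58 to -0.46; adjusted p = 0.0175), the largest decrease among the members. It missed without control tumour 1 (-0.90; adjusted p = 0.0546), and without BAFF tumour 1, the lowest library, its log2 fold change was -0.68 (adjusted p = 0.0373). Averaged over both groups, Ifi44 was also the member with the lowest level per kilobase of exon, at 2.14 scaled CPM in BAFF tumour libraries and 4.49 in controls. Ifi27l2a, which encodes a small interferon-induced membrane protein, was the most abundant member per kilobase, at 267 scaled CPM in BAFF tumour libraries and 268 in controls. Its libraries read 115, 145 and 110 scaled CPM in BAFF tumours, against 105, 145 and 123 in controls, and the groups overlapped. Bst2 (tetherin, which holds budding virus at the cell surface) had 49.0, 56.6 and 56.1 scaled CPM in BAFF tumour libraries, against 57.2, 88.4 and 65.7 in controls. Xaf1, a gene for a partner of the apoptosis inhibitor XIAP, averaged 23.4 ± 0.934 scaled CPM in BAFF tumour libraries and 27.9 ± 3.64 in controls. The groups did not overlap for Bst2 (-0.36 ± 0.14; adjusted p = 0.113) or Xaf1 (-0.23 ± 0.12; adjusted p = 0.212), yet neither passed. Ifi35 and Rtp4 had log2 fold changes of 0.18 and 0.10.

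A pattern by library recurred across the members. Control tumour 2 was the highest of the 6 libraries for 19 of the 39 members (48.7%), against 16.0% of all tested genes. BAFF tumour 1 was the lowest for 17 (43.6%), against 14.8% of all tested genes, and control tumour 3 was the lowest for 12 (30.8%), against 21.1%. The median deviation of the members from their mean over the 6 libraries was -0.21, 0.04 and 0.13 on the log2 scale in BAFF tumours 1, 2 and 3, and -0.05, 0.23 and -0.19 in control tumours 1, 2 and 3. The libraries of each group thus lay on both sides of 0. Control tumours 2 and 3, the shallowest libraries and those high in ribosomal RNA, lay at opposite ends of the control group. The controls had the larger SD for 23 members (59.0%) and for 56.5% of all tested genes. Ifnar1 and Ifnar2 ran against the pattern, with BAFF tumour 1 as their highest and control tumour 2 as their lowest library.

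**Figure D3:**
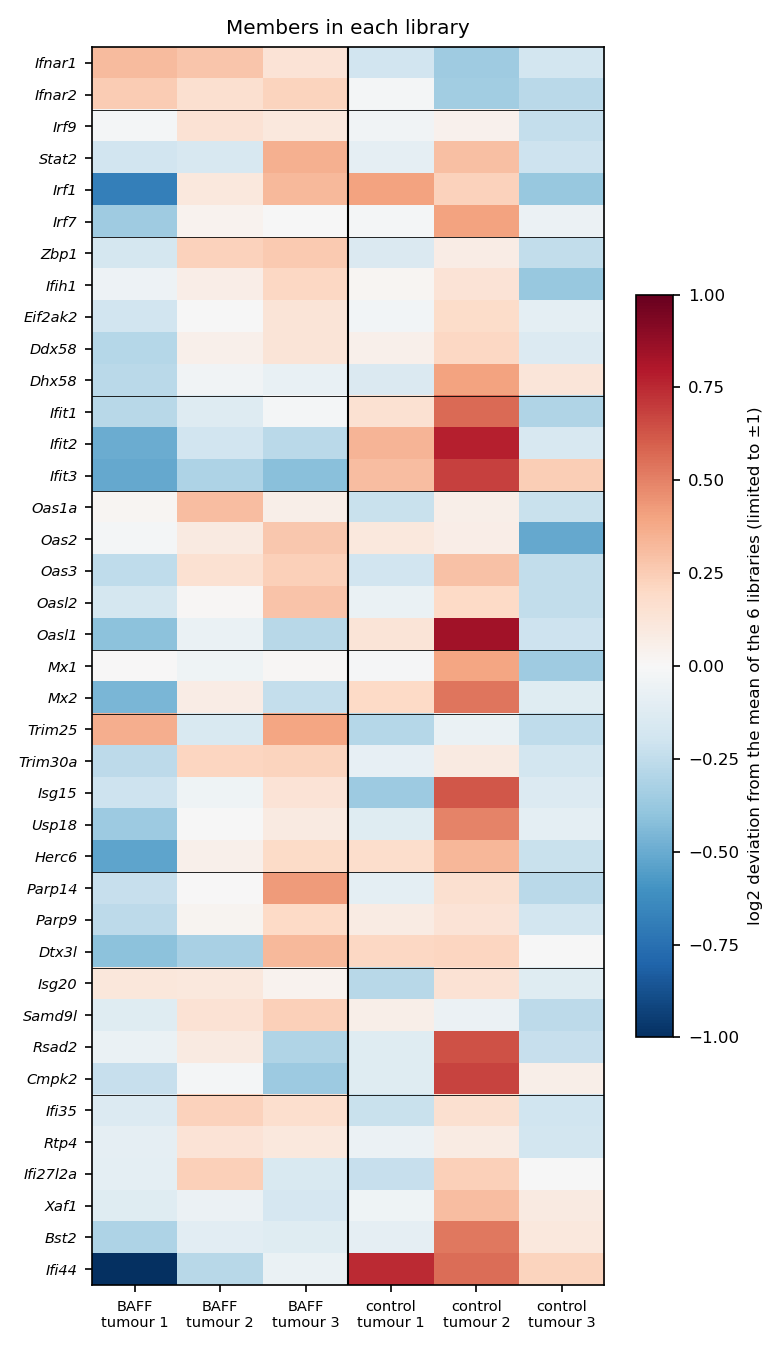
Deviation of each of the 39 members from its mean over the 6 libraries, on the log2 scale with colours limited to ±1, in BAFF tumour libraries left and control tumour libraries right. Control tumour 2 is the highest library for 19 members and BAFF tumour 1 the lowest for 17, while Ifnar1 and Ifnar2 show the reverse order.

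Of the 18 genes listed as type I interferon ligands, only Ifnb1 was found by name in the deposited table. The others had no row there, and whether a filter had removed them is not stated. Ifnb1 (interferon beta) had 0.194, 1.05 and 0.37 scaled CPM in BAFF tumour libraries, against 0.866, 0.777 and 0.632 in controls. Its mean was too low for it to be tested, so no difference between the groups is stated. In BAFF tumour 1 and control tumour 3 it lay below the floor of 3 reads (0.291 and 0.948 scaled CPM). In the other libraries it lay above that floor. Plasmacytoid dendritic cells are known as strong producers of interferon alpha. Of their 11 marker genes 4 were expressed enough to test and 0 were called, and the list summed to 46.4 to 51.7 scaled CPM in BAFF tumour libraries and 47.8 to 51.2 in controls. Most of that sum was Tcf4, a transcription factor gene also active in other cells, with 34.9, 32.3 and 35.6 scaled CPM in BAFF tumour libraries, against 38.4, 37.3 and 33.5 in controls (log2 fold change -0.08 ± 0.10). The other 3 tested markers, Siglech, Ccr9 and Runx2, had log2 fold changes of 0.35, 0.26 and 0.23. Siglech, the defining surface marker, had 3.78, 2.89 and 3.33 scaled CPM in BAFF tumour libraries, against 2.28, 2.33 and 2.53 in controls, without overlap (SE of the fold change 0.18; adjusted p = 0.202). Cox6a2, another of these markers, was at 0 in BAFF tumour 3 and control tumour 2, and Klk1b27 and Cd300c were at 0 in control tumour 2.

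Among 30 tested genes of interferon signalling and induction outside the members, 5 passed as higher, 1 passed as lower and 24 did not pass, with a median log2 fold change of 0.14. The share called in either direction, 20%, was near the 17.1% of all tested genes. By direction, all tested genes had 7.18% called higher and 9.91% called lower, so this list leaned to higher. Of its 30 genes 23 had a positive log2 fold change, against 6560 of all 12824 tested genes. Socs3, an inhibitor of JAK kinases best known downstream of interleukin 6, had 281, 295 and 246 scaled CPM in BAFF tumour libraries, against 191, 185 and 157 in controls (log2 fold change 0.62 ± 0.11; adjusted p = 0.0027). Ptpn2, a phosphatase that acts on JAK1, had 42.4, 49.7 and 52.9 scaled CPM in BAFF tumour libraries, against 27.8, 37.4 and 30.6 in controls (0.59 ± 0.13; adjusted p = 0.00897). For both genes every BAFF tumour library was above every control. Irf5, an inducer of inflammatory cytokine genes, was at 0.31 ± 0.09 (adjusted p = 0.0343), Irf2bp2, a partner of IRF2, at 0.37 ± 0.11 (adjusted p = 0.0373) and Ifngr1, the ligand-binding chain of the interferon gamma receptor, at 0.40 ± 0.12 (adjusted p = 0.0445). The call of Irf5 was lost with the replicate number as a block (limma adjusted p = 0.0734), as was that of Irf2bp2 (0.0583). With upper-quartile factors Irf5, Irf2bp2 and Ifngr1 all missed (limma adjusted p = 0.0704, 0.0646 and 0.0717). The calls of Irf5, Irf2bp2 and Ifngr1 were each lost in 5 of the 6 fits without 1 library.

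Tlr3, the endosomal sensor of double-stranded RNA, had 2.52, 3.78 and 4.99 scaled CPM in BAFF tumour libraries, against 9.07, 10.1 and 6.00 in controls, without overlap (log2 fold change -0.99 ± 0.23; adjusted p = 0.0116). With a pseudocount of 5 the log2 fold change of Tlr3 was -0.61. The receptor kinases, chosen after their values were seen, did not pass, at 0.19 ± 0.10 for Jak1 and 0.10 ± 0.11 for Tyk2. Socs1, the SOCS protein most closely tied to interferon signalling and chosen likewise, was at 0.31 ± 0.18 (adjusted p = 0.278).

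A wider set of 105 tested interferon stimulated genes outside the members had 5 higher, 7 lower and 93 not called and a median log2 fold change of -0.01. The share called was 11.4%, against 17.1% of all tested genes. Gm4951, a predicted interferon-inducible GTPase gene, had 1.75, 4.45 and 7.58 scaled CPM in BAFF tumour libraries, against 21.1, 17.6 and 11.1 in controls (log2 fold change -1.76 ± 0.34; adjusted p = 0.0045). Lgals3bp, a secreted glycoprotein gene, had 116, 126 and 126 scaled CPM in BAFF tumour libraries, against 175, 179 and 153 in controls (-0.46 ± 0.10; adjusted p = 0.0078). Both were lower without overlap. Apol9b, with 0.097, 0.46 and 0.528 scaled CPM in BAFF tumour libraries, against 1.56, 2.48 and 1.25 in controls, was also called (-1.01 ± 0.24; adjusted p = 0.0133), but its BAFF tumour 1 value lies under the floor of 3 reads, and the call was lost without that library (adjusted p = 0.0611). The log2 fold change of Apol9b depends on the pseudocount, at -2.13 with 0.1 and -0.33 with 5, and was -2.22 with voom weights. Ms4a4c, a tetraspanning membrane protein gene of monocytes, ran the other way at 193, 255 and 242 scaled CPM in BAFF tumour libraries, against 145, 173 and 144 in controls (0.57 ± 0.12; adjusted p = 0.0078). B2m, the invariant chain of MHC class I and the most abundant gene of the set, was at 0.15 ± 0.12 (adjusted p = 0.467). In this set too, control tumour 2 was the highest library for 33.3% of genes and BAFF tumour 1 the lowest for 42.9%.

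A list of interferon gamma genes held mostly genes of GTPases that attack vacuoles of pathogens. It had 2 higher, 2 lower and 18 not called of 22 tested, with a median log2 fold change of -0.21. The share called, 18.2%, was near the 17.1% of all tested genes. This share includes Ifngr1, a receptor gene that was also counted in the signalling list above. Besides Ifngr1, the other higher gene was Gbp2, which had 332, 547 and 602 scaled CPM in BAFF tumour libraries, against 287, 328 and 285 in controls (0.67 ± 0.18; adjusted p = 0.0265). Its close relative Gbp2b had 3.98, 11.7 and 35.6 scaled CPM in BAFF tumour libraries, against 182, 34.8 and 74.7 in controls, and was called lower (-2.58 ± 0.63; adjusted p = 0.0156) although the groups overlapped. Irgm2 was lower at -0.78 ± 0.23 (adjusted p = 0.0371), also with overlap, and Tgtp1 did not pass at -0.95 (adjusted p = 0.091). Gbp2 and Gbp2b are paralogs, and how far their reads can be told apart was not measured here. BAFF tumour 1 was the lowest library for 18 of the 22 genes (81.8%), and control tumour 2 was the highest for 4.55%. The call of Gbp2b was lost without BAFF tumour 1 (adjusted p = 0.0502) or BAFF tumour 2 (0.0613), that of Gbp2 without BAFF tumour 2 or 3 or control tumour 1 or 3, and that of Irgm2 without BAFF tumour 1 (-0.48; adjusted p = 0.113) or 2 or control tumour 1 or 2.

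**Figure D4:**
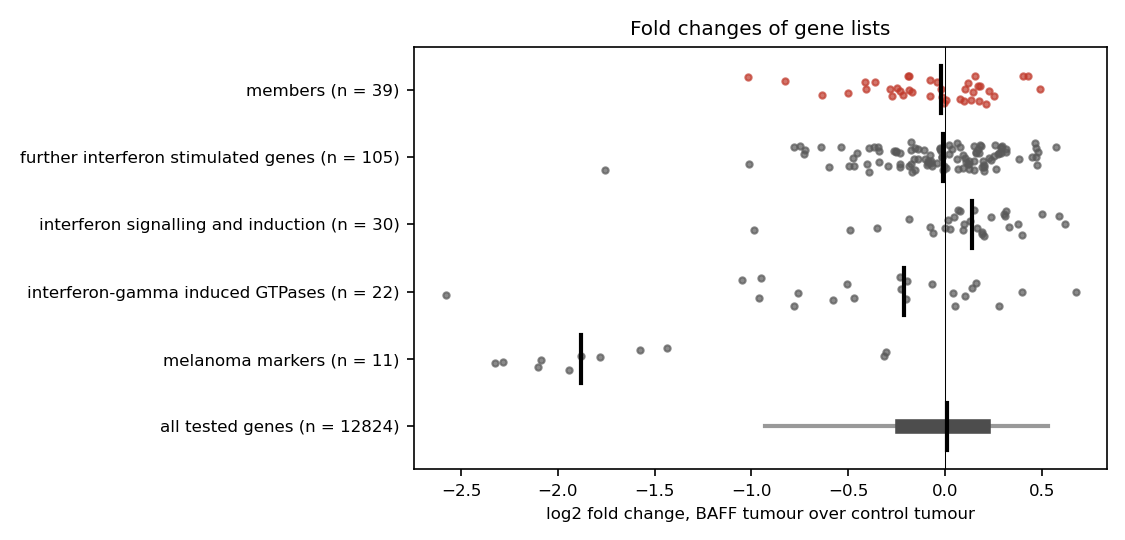
Log2 fold changes, BAFF tumour over control tumour, of the genes of 5 lists (points) with the median of each list (black bar), above the 25th to 75th (thick line) and 5th to 95th percentiles (thin line) of all tested genes. The 39 members are centred at -0.02 and the 105 further interferon stimulated genes at -0.01, whereas the 11 melanoma markers are centred at -1.88.

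The melanoma and cell cycle markers moved with the groups, with median log2 fold changes of -1.88 and -1.58, against -1.02 for Ifi44, the lowest member. Their part in the lower Ifit2, Ifit3 and Ifi44 values and in the higher Ifnar1 and Ifnar2 values was not tested. Neutrophil markers were also higher, at 206 to 313 summed scaled CPM in BAFF tumour libraries and 116 to 178 in controls, with 4 of 9 called. Genes of the early response to cell isolation had 4 of 12 called higher, with a median of 0.27. T and NK cell markers had 0 of 10 called (limma; 1 at an unadjusted p under 0.05), and their summed level was 21.9 to 34.9 scaled CPM in BAFF tumour libraries and 18.6 to 39.3 in controls. B and plasma cell markers had 2 of 4 called lower, Igkc at -1.17 ± 0.25 (adjusted p = 0.00746) and Jchain at -1.19 ± 0.33 (adjusted p = 0.0298), with a list median of -0.79. Conventional dendritic cell markers had 2 of 8 called higher, Flt3 at 0.87 ± 0.20 (adjusted p = 0.0114) and Cd209a at 0.92 ± 0.24 (adjusted p = 0.0208), and the list median was -0.27. Of 9 tested fibroblast and endothelial markers, Kdr and Pecam1 were called higher, at 0.65 ± 0.15 and 0.63 ± 0.16, and Col1a1 lower, at -1.14 ± 0.35. The part of these cells in the values of the interferon genes was not tested.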

How the data were processed

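Gene-level RNA-seq values of 6 libraries, 3 per group, were used, with groups and replicate numbers from the sample titles. The authors deposited 1 table of CPM for 18341 genes, a unit identified from its values, since low values within a library are mostly whole multiples of 1 step (85.05% to 86.47% within 0.02 of a whole multiple, for multiples up to 20). The step gave 4.72 to 27.6 reads per CPM. Reads were not recovered gene by gene, so no count model was used. Libraries were made with a TruSeq v2 kit and run on a HiSeq, per the labels' protocols. Partek, STAR 2.4.1d and Bowtie2 2.2.5 are named in the submitters' processing notes without their roles. The sources used here state no build, annotation or filter. The misspelled column of control 2 was assigned to control tumour 2, the title closest to it.

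Deposited CPM were divided by median-of-ratios size factors (0.67 to 1.27) computed on the 12824 genes with a mean of at least 1 CPM. The test was limma-trend (limma 3.58.1, R 4.3.3) on log2(value + 1), without covariates, with Benjamini-Hochberg adjustment over all tested genes and calls at adjusted p under 0.05. Adding 1 before the log shrinks the fold changes of weakly expressed genes. Levels carry the SD of 3 libraries and fold changes the SE. Intervals are 95% per gene and unadjusted. Floors are 3 reads and cover counting error only. Replicates of 1 group differed by more than sampling noise (smallest chi-square per degree of freedom 8.12). Exon lengths and shared 75-base stretches came from GENCODE mouse release M21, and promoters and gene order from RefSeq on GRCm38.p6.

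All 39 members are named, with values per library for those called, for the receptor, STAT and IRF genes and for the most abundant gene of each role. In each companion list the 5 genes of smallest p and the most abundant were named (1 gene under this rule is not reported here), and other genes are marked as chosen after their values were seen. The members and lists were chosen with earlier results of these data known, so lists are described by counts and medians and have no test. Other scales, pseudocounts, filters, precision weights, a replicate block and leaving out libraries were tried.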

Additional observations from a re-analysis of the deposited data

How the results depend on the processing

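With the deposited CPM and no rescaling, 681 genes were called (232 higher, 449 lower) instead of 2192 (921 higher, 1271 lower), with 0 members higher, 0 lower, 3 companion genes instead of 21, and a member median of 0.227 instead of -0.02. That scale shifts the median of all tested genes to 0.23. Ifnar1, Ifnar2, Ifit2, Ifit3 and Ifi44 kept their direction on it, at log2 fold changes of 0.74, 0.68, -0.39, -0.58 and -0.80 (limma adjusted p = 0.193, 0.256, 0.569, 0.365 and 0.128). Testing genes above a mean of 5 CPM called 669 genes lower, among 9096 tested. Upper-quartile and trimmed-mean factors, pseudocounts of 0.1 and 5, no filter, the stricter filter, voom weights and the replicate block each called 2 members higher and 3 lower. The replicate block called 1940 genes in all and 19 companion genes. After the mean of its group was taken off each gene, the deviations of same-numbered BAFF tumour and control libraries correlated at -0.0494, 0.0523 and -0.0387. Pairs with different numbers ran from -0.0546 to 0.0889. The same-numbered pairs thus did not stand out, but whether they were handled together was not tested. Leaving out each library in turn gave 1349 to 1830 genes called (516 to 764 higher, 833 to 1172 lower), 1 to 3 members higher, 2 to 5 members lower, 9 to 24 companion genes, and a member median of -0.122 to 0.108. Members gained were Trim25 without BAFF tumour 2, Dtx3l without BAFF tumour 3, Cmpk2 and Bst2 without control tumour 1, and Ifit1 and Oasl1 without control tumour 3. With control tumour 1 as the sole control, assumed to vary like the other libraries, 1100 genes (284 higher, 816 lower), 0 members higher, 3 lower and 9 companion genes were called, and Socs3 and Lgals3bp missed (adjusted p = 0.0864 and 0.0537). The cause of these differences was not tested. Depth limits Ifnb1 and other genes near the floor of 3 reads.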
